A study of Mus musculus with 12 samples.

Results

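Ly86 and 9 other genes of resident macrophages were followed in RNA-seq counts of mouse trigeminal ganglion (TG) and dorsal root ganglion (DRG) neurons. The members were chosen by gene symbol: Ly86, Csf1r, Cx3cr1, Aif1, Cd68, Mrc1, C1qa, C1qb, C1qc and Tyrobp, which are 10 of the 22609 genes in the count files. Ly86 was selected on its TG to DRG difference in these same libraries, so its TG and DRG levels are given as a description with no test. The other 9 members served as its company: the question was whether Ly86 moved with them between ganglia, between sexes and from library to library.

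The series held 12 libraries of sensory neuronal fractions enriched on a Percoll gradient, with 3 libraries for each sex of DRG and of TG. All came from naive, untreated mice of a C57BL strain. The sample labels give an age of 3 to 4 months, although the methods of the study give a younger range. The methods also state that the females were in the estrous phase. Each female against male result here thus compares females of that phase with males, and other phases were not measured. There was no transgene, lesion or drug in any group. The labels do not say how many animals went into a library or whether replicates were separate preparations, so p-values measure only the spread between these libraries, part of which may be technical.

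Resident macrophages sit among neurons, satellite glia and vessels of sensory ganglia, where they clear debris and respond to nerve injury. Their survival depends on the CSF1 receptor, they are held in place in part by the fractalkine receptor CX3CR1, and they are a main source of the complement component C1q. LY86, also called MD-1, is a small secreted protein that pairs with the toll-like receptor relative CD180 (RP105) on macrophages, dendritic cells and B cells, in the way that LY96 (MD-2) pairs with TLR4.

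Reads in genes ranged from 7511765 to 15396090 per library, and 3 counts corresponded to 0.195 to 0.399 CPM before scaling. CPM is a gene's reads as a share of all reads in genes, and all levels given here were put on a common scale with TMM factors. Female DRG 1, which had the fewest reads, and female TG 3 stood apart from the other libraries on principal components, and the results were run with and without them. The 10 sensory neuron genes summed to between 5471 and 9857 CPM, and the 8 satellite glia genes to between 2930 and 7895 CPM, so transcripts of other cells were present in every fraction labelled as neuronal. In such bulk samples, fewer cells of a type and less RNA per cell cannot be told apart.

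Ly86 lies on chromosome 13 (mm9, chr13:37437214-37510905, plus strand, 5 exon blocks totalling 997 bp), and no other annotated gene overlaps it. The C1q genes lie side by side on chromosome 4 (chr4:136436044-136442102 for C1qb, chr4:136445719-136448980 for C1qc and chr4:136451832-136454718 for C1qa, all on the minus strand). Exons of Csf1r overlap those of Hmgxb3 on the opposite strand. Whether counting used strand is not stated in the sources used here, so Csf1r counts carry that uncertainty. The other members share no exon with another annotated gene.

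The RefSeq promoter table (GRCm38.p6) held 7 of the 10 members: Ly86, Cx3cr1, Aif1, Cd68, Mrc1, C1qb and C1qc. The 250 bases before the start of each gene were searched on both strands for GAGGAA, the purine-rich core bound by PU.1, a transcription factor that macrophages need. Its reverse complement is TTCCTC. The windows of Ly86 and of 2 members that moved differently from it are shown 5′ to 3′ on the gene's strand, with the motif in capitals. They are chr13:37345095-37345344 (plus) for Ly86, chr4:136886201-136886450 (minus) for C1qb and chr9:120068297-120068546 (minus) for Cx3cr1.
Ly86: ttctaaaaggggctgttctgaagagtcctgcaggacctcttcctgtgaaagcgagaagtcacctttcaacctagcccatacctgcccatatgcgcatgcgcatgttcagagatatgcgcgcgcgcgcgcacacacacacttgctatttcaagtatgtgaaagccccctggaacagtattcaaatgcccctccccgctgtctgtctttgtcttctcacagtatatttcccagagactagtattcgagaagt
C1qb: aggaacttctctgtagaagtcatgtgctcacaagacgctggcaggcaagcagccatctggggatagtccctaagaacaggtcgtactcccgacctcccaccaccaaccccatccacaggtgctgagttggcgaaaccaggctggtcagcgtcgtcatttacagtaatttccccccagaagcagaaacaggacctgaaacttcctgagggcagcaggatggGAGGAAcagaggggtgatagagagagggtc
Cx3cr1: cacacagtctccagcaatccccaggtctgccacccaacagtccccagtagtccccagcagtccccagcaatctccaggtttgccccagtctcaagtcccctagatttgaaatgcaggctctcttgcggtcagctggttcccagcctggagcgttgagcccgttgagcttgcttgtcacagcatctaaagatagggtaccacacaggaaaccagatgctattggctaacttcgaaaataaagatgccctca
The C1qb window held the motif once, 30 bases before the start. The windows of Ly86 and Cx3cr1 held none, Aif1, C1qc and Cd68 held 1 each, and Mrc1 held 3, so 5 of the 7 windows had it. Of 32851 windows of this length, 23.3% had it. The match is a description of these letters only.

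Ly86 was far higher in DRG than in TG. It measured 84.1, 77.7 and 129 CPM in the female DRG libraries and 114, 143 and 196 CPM in the male DRG libraries. It measured 15.9, 22.1 and 19.3 CPM in the female TG libraries and 50.2, 44.6 and 31.5 CPM in the male TG libraries. Every DRG library was above every TG library, and the lowest and highest raw counts, 181 in TG and 2487 in DRG, were both far above the floor of 3. The mean was 124 ± 43.4 CPM in DRG and 30.6 ± 14.1 CPM in TG (SD, n = 6), a 4.26-fold difference (log2 −2.09, SE 0.21). The log2 difference was −2.34 (SE 0.30) within females and −1.84 (SE 0.30) within males. Of 14829 genes tested, 0.364% likewise had every DRG library above every TG library. Ly86 was chosen for this contrast, so the share is printed for scale only.

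**Figure D1:**
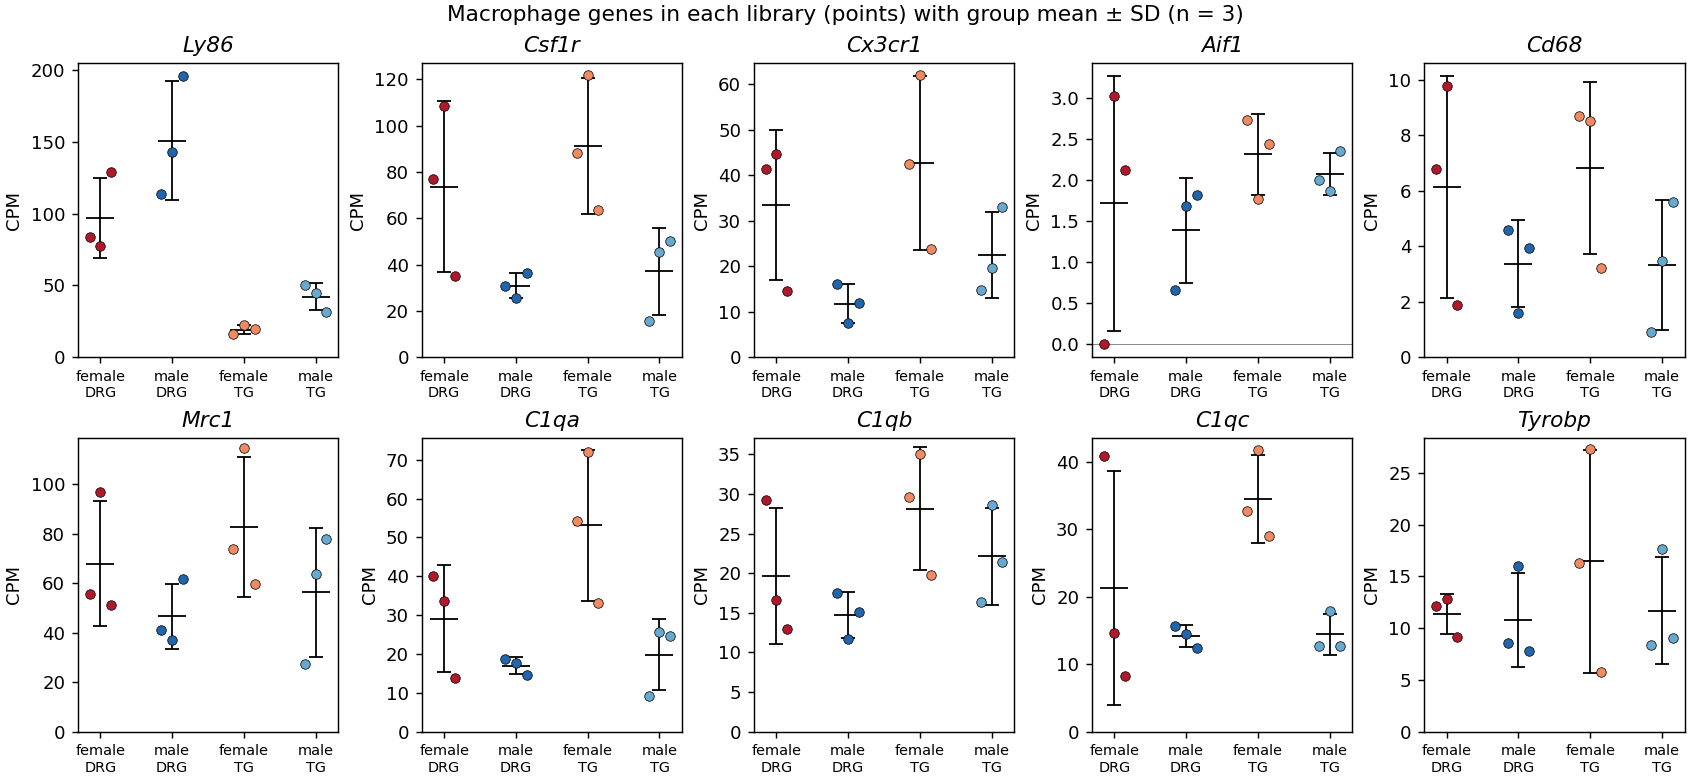
CPM (TMM-scaled) of the 10 macrophage genes in each of the 12 libraries, 1 panel per gene with its own axis. Points are libraries in replicate order and bars are the group mean ± SD (n = 3). Ly86 alone has all DRG libraries above all TG libraries, while the other 9 genes overlap between the ganglia.

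The other macrophage genes did not share this fall. Of the 9, 0 passed the TG against DRG test (edgeR quasi-likelihood test, adjusted p over all genes, 0.569 to 0.9998), against 0.964% of the 14829 genes tested in either direction. At an unadjusted p under 0.05 the count was also 0 of 9, and it was 0 by DESeq2. Their log2 fold changes, TG over DRG, lay between 0.06 and 0.64, with a median of 0.36. All 9 were thus above 0 and opposite in sign to Ly86, where the median of all genes was −0.01 and 49.0% were above 0. The 9 moved together from library to library (median r of 0.53 with group means subtracted), so their signs are not 9 separate observations. For each of the 9, TG and DRG libraries overlapped, and 0.998% of all genes had every TG library above every DRG library.

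Csf1r, the receptor that macrophages need for survival, measured 77.1, 109 and 35.0 CPM in female DRG and 30.6, 25.5 and 36.2 CPM in male DRG. In TG it measured 88.3, 122 and 63.5 CPM in females and 15.7, 45.3 and 50.3 CPM in males. The sexes were further apart than the ganglia, and TG over DRG was 0.29 (log2, 95% interval −0.33 to 0.91). Cx3cr1, the fractalkine receptor, measured 41.4, 44.6 and 14.6 CPM in female DRG and 15.98, 7.51 and 11.8 CPM in male DRG. It measured 42.3, 61.9 and 23.7 CPM in female TG and 14.8, 19.6 and 33.0 CPM in male TG. The ganglia overlapped widely, with TG over DRG at 0.64 (log2, 95% interval −0.03 to 1.31), the highest of the 9. Mrc1, the mannose receptor CD206, ran from 37.2 to 96.9 CPM in DRG and from 27.4 to 114 CPM in TG (log2 0.28, 95% interval −0.28 to 0.83).

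The C1q chains are assembled together into 1 recognition protein of the classical complement pathway. C1qa measured 40.1, 33.5 and 13.8 CPM in female DRG, and 18.8, 17.6 and 14.5 CPM in male DRG. Female TG libraries held 54.1, 72.0 and 33.2 CPM and male TG libraries 9.29, 25.6 and 24.6 CPM. The 3 female TG libraries were the only ones of TG above 30 CPM, and TG over DRG was 0.55 (log2, 95% interval −0.09 to 1.18). C1qb ran from 11.6 to 29.3 CPM in DRG and from 16.4 to 35.0 CPM in TG (log2 0.56, 95% interval −0.00 to 1.11). C1qc ran from 8.30 to 40.9 CPM in DRG and from 12.7 to 41.7 CPM in TG (log2 0.36, 95% interval −0.30 to 1.03). The highest DRG value of both C1qb and C1qc was that of female DRG 1.

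The adaptor and the 2 intracellular markers were lower. Tyrobp (DAP12), the signalling adaptor of TREM2 and related receptors, ran from 7.80 to 16.1 CPM in DRG and from 5.76 to 27.3 CPM in TG (log2 0.33, 95% interval −0.44 to 1.09). Cd68, a lysosomal membrane protein, ran from 1.59 to 9.79 CPM in DRG and from 0.911 to 8.71 CPM in TG (log2 0.06, 95% interval −1.15 to 1.27). Its sign was not stable: it turned negative when 1 of 5 libraries was left out. Aif1 (IBA1), an actin-binding protein used to stain macrophages, had 0 to 34 counts per library and 0 in female DRG 1 (log2 0.50, 95% interval −1.47 to 2.47). The intervals of Cd68 and Aif1 allow differences of more than 2-fold in either direction.

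**Figure D2:**
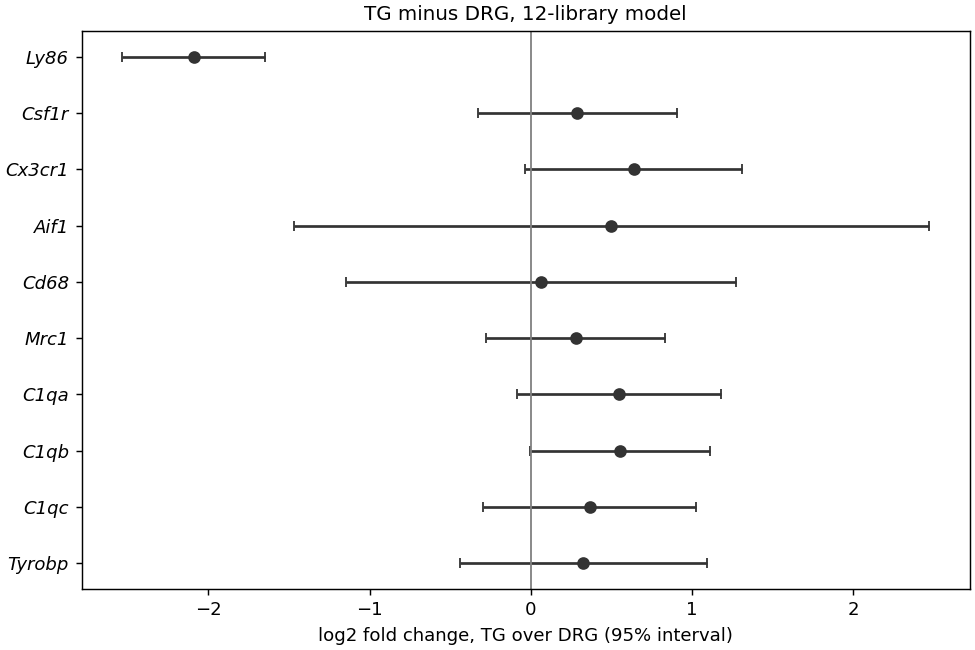
Log2 fold change of TG over DRG for each macrophage gene in the 12-library edgeR model, with 95% intervals as bars. Ly86 lies at −2.09 and was chosen on this contrast. The other 9 lie between 0.06 and 0.64, with intervals that reach 0 or below.

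Within each sex the picture was much the same. Among males, Aif1 had 7 to 23 counts in DRG and 22 to 27 in TG (log2 0.58, SE 1.33). Its TG libraries were above its DRG libraries by 1.87 against 1.81 CPM at the closest, and the other 8 genes overlapped. The share of all genes without overlap in males is not given, so the separation of Aif1 is not read as a result. Among females all 9 were above 0, from 0.15 to 0.87 on the log2 scale, and 0 of 9 passed (edgeR, adjusted p 0.732 to 0.993), against 0.175% of genes. Among males 8 of 9 were above 0 and Cd68 was at −0.02, and again 0 of 9 passed (edgeR, adjusted p 0.9999 for each), against 0.209% of genes. At an unadjusted p under 0.05 the count was 0 of 9 in both sexes, and DESeq2 likewise called 0.

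Levels per kilobase of exon put Ly86 beside the other members, again as a description that contains the contrast it was chosen on. Ly86 was the highest of the 10 members in DRG, with 124 ± 43.6 CPM per kb (SD, n = 6), followed by C1qa with 22.2 ± 10.6 and Tyrobp with 19.7 ± 5.57. Its place in TG differed by sex. In male TG it was again the highest, with 42.2 ± 9.60 CPM per kb (SD, n = 3), followed by Tyrobp with 20.8 ± 9.21, C1qb with 20.3 ± 5.64 and C1qa with 19.0 ± 8.77. In female TG it ranked 4 of the 10, with 19.2 ± 3.10 CPM per kb, after C1qa with 51.1 ± 18.7, Tyrobp with 29.2 ± 19.1 and C1qb with 25.9 ± 7.10, and it did not differ from Tyrobp and C1qb beyond their spread. The per-kb ratio of Ly86 to Csf1r had a median of 19.4 in DRG (range 3.75 to 29.4 over 6 libraries) and of 2.44 in TG (range 0.945 to 16.8). To C1qa the ratio had a median of 7.39 in DRG (range 2.19 to 14.1) and 0.973 in TG (range 0.307 to 5.63).

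On the log2 CPM scale, Ly86 minus the mean of the other 9 was 2.29, 1.77 and 3.60 in female DRG and 3.30, 3.81 and 4.04 in male DRG. It was −0.71, −0.55 and 0.23 in female TG and 2.54, 1.42 and 0.90 in male TG. Female TG libraries had the lowest values of the 12, and male TG 1 was above 2 of the female DRG libraries, so the ganglia overlapped on this measure. The difference of the means, TG minus DRG, was −2.50 on this log2 scale. The measure contains the contrast that chose Ly86 and has no test.

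**Figure D3:**
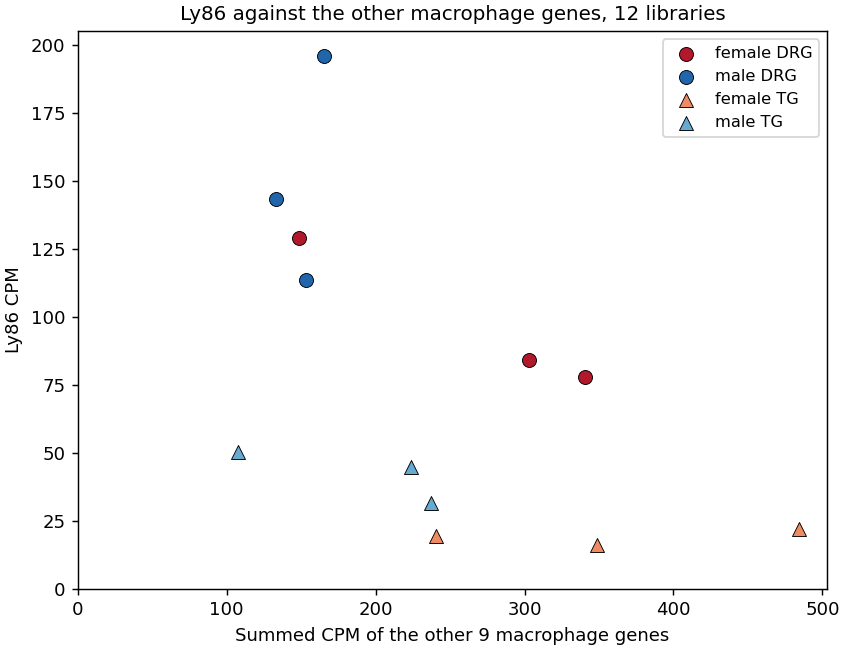
Ly86 CPM on the y axis against the summed CPM of the other 9 macrophage genes on the x axis, 1 point per library (circles DRG, triangles TG, coloured by group). DRG libraries lie above all TG libraries on the y axis, at sums of 133 to 340 CPM that fall within the TG range of 108 to 484 CPM.

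No difference was detected in the partner of LY86, which had few counts. Cd180, its receptor, had 0 to 71 counts per library and averaged 2.76 CPM in TG (SD 1.61) against 2.21 CPM in DRG (SD 2.40), a log2 difference of 0.32 (SE 1.03, edgeR adjusted p = 0.9998, 6 libraries each). In the related pathway, Ly96, which pairs with TLR4, measured 4.88 ± 1.75 and 5.77 ± 4.27 CPM (log2 −0.21, SE 0.54). Tlr4 itself, the endotoxin receptor, measured 21.6 ± 9.81 and 20.4 ± 7.29 CPM (log2 0.02, SE 0.28). Cd14, the endotoxin co-receptor, measured 14.9 ± 5.35 and 12.4 ± 3.71 CPM (log2 0.28, SE 0.31). In this list of 5, 0 of the 4 genes other than Ly86 passed the TG against DRG test by edgeR or DESeq2, and 0 had an unadjusted p under 0.05.

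Ligands of the macrophage receptors were low in both ganglia. Csf1 averaged 17.7 ± 11.1 CPM in TG against 17.1 ± 7.56 CPM in DRG (log2 0.00, SE 0.35), and Il34, the second ligand of the CSF1 receptor, 10.4 ± 3.04 and 13.7 ± 4.57 CPM (log2 −0.43, SE 0.30). Cx3cl1 (fractalkine), which neurons make, measured 13.1 ± 6.77 and 17.7 ± 13.9 CPM (log2 −0.38, SE 0.34). Of these 3, 0 passed the TG against DRG test by edgeR or DESeq2, and 0 had an unadjusted p under 0.05.

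A wider list held 29 macrophage and myeloid genes. Of 29 tested, 0 passed by edgeR or DESeq2, where DESeq2 called 2.25% of genes. At an unadjusted p under 0.05 there were 5, where 8.83% of all genes were, while 23 had a log2 fold change above 0 and the median was 0.31. The smallest p-values in the list belonged to Ctss, Fcgr3 and Runx1. Ctss, a lysosomal protease, measured 60.1 ± 16.3 CPM in TG and 32.5 ± 11.1 in DRG (log2 0.89, SE 0.26, edgeR adjusted p = 0.160). Fcgr3, an IgG receptor, measured 10.3 ± 2.93 and 3.95 ± 1.65 CPM (log2 1.38, SE 0.42, edgeR adjusted p = 0.173). Runx1, a transcription factor that sensory neurons make too, measured 80.4 ± 30.9 and 113 ± 27.9 CPM (log2 −0.51, SE 0.19, edgeR adjusted p = 0.382).

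Narrower macrophage lists also had 0 genes called between the ganglia by edgeR or DESeq2, and 0 at an unadjusted p under 0.05. Medians of the log2 difference, TG over DRG, were 0.33 for 7 tested TYROBP partners, 0.14 for 9 microglia-type genes, −0.46 for 8 perivascular macrophage genes and −0.46 for 7 dendritic cell genes. Markers of blood-borne cells had low levels. The 8 B cell genes summed to 1.69 to 9.54 CPM in DRG and to 0.00 to 1.23 CPM in TG, and only 2 of them (Cd79b and Ms4a1) had enough counts to be tested. No B cell gene had more than 24 counts in a library. Ms4a1, a defining gene, was at 0 in every TG library and reached 24 counts in DRG, and Cd79a reached 11. Of the 2 tested, Ms4a1 had an unadjusted p under 0.05, where 8.83% of all genes had. With 0 counts in TG, it could be kept by the count filter only through DRG, so its direction was fixed in advance. The 8 neutrophil genes summed to 8.13 to 120 CPM in DRG and 4.34 to 15.6 CPM in TG, and the 7 monocyte genes to 13.7 to 47.7 and 10.8 to 29.3 CPM. Of the 6 neutrophil and 5 monocyte genes tested, edgeR called 0, with 4 and 1 at an unadjusted p under 0.05 (8.83% of all genes), and DESeq2 called 2 and 1 (2.25% of all genes). The median log2 difference, TG over DRG, was −2.42 for the neutrophil and −1.39 for the monocyte genes, with 1 gene above 0 in each list. Genes near 0 in TG can be kept by the count filter through DRG alone, so these medians are a description. The part of these cells in the Ly86 difference was not tested.

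The genes with the pattern most like that of Ly86 were named by Pearson correlation of log2 CPM. Over the 12 libraries this measure contains the TG to DRG gap on which Ly86 was chosen, so that high values go to genes higher in DRG by construction, and it is a description only. The closest were Serinc5 (r = 0.941), Trpc6 (0.941), Bmp15 (0.936), S100a11 (0.926) and Kcnv1 (0.916). Kcnv1, a potassium channel subunit, had means of 66.3 CPM in DRG and 12.4 CPM in TG, Bmp15 30.3 and 6.73 CPM, and Trpc6, a cation channel, 56.2 and 28.5 CPM. The same measure for the other 9 members was between −0.70 (C1qb) and −0.23 (Tyrobp). With the mean of each ganglion subtracted, the closest were Tmem106b (r = 0.949), Prpf18 (0.929), 1700052N19Rik (0.928), Chmp1b (0.925) and Plrg1 (0.923). These 5 differed little between ganglia (log2 −0.19 to −0.04), and their means were higher in males than in females, as for Plrg1 with 94.0 and 59.2 CPM.

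Ly86 had not been selected on female against male. The other members were listed with earlier results of these data known. The study names C1q, Cx3cr1 and the ligand Cx3cl1 among its female-selective genes, so their sex differences here are not an unselected test. In TG the sexes were apart for 4 members, in 2 directions. Criteria modelled on those of the study were used, with CPM in place of RPKM and p-values from edgeR: a fold above 2, an unadjusted p under 0.05 and a mean above 1 CPM in the higher sex. Under them, Csf1r, C1qa and C1qc were higher in females, where 5.15% of the 14009 genes tested were. Ly86 was higher in males, where 2.26% were. The edgeR log2 differences, female over male, were 1.35 (SE 0.41) for Csf1r, 1.48 (SE 0.41) for C1qa, 1.30 (SE 0.29) for C1qc and −1.09 (SE 0.28) for Ly86. For these same 4 genes female and male TG libraries did not overlap. That held for 11.2% of genes in the female direction and 12.6% in the male direction, so it is common. Of the 10, 0 passed adjustment over all genes (edgeR adjusted p from 0.154 to 0.921) and 5 had an unadjusted p under 0.05, where 20.7% of all genes had. By DESeq2 those 4 genes passed, with adjusted p of 0.0123 for C1qc, 0.0204 for Ly86, 0.0252 for C1qa and 0.0329 for Csf1r, where 6.36% of the 11836 genes with an adjusted p passed. Without female TG 3, they and Cx3cr1 passed by edgeR, with adjusted p from 0.00906 for C1qc to 0.0246 for Cx3cr1, but so did 23.6% of all genes.

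C1qc in TG had 32.6, 41.7 and 29.0 CPM in females and 12.7, 17.96 and 12.8 CPM in males. Cx3cr1 was just short of the fold criterion in TG (log2 0.98, SE 0.40). Cd68 passed the fold but not the p (log2 1.09, SE 0.71), and Mrc1, C1qb, Tyrobp and Aif1 lay between 0.20 and 0.61. Without male TG 1, the library with the lowest Csf1r and C1qa, 2 members met the criteria in place of 4.

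In DRG, Csf1r and Cx3cr1 met the same criteria, both higher in females, against 2.01% of the 13963 genes tested. Csf1r differed by 1.26 (log2, SE 0.39) and Cx3cr1 by 1.51 (SE 0.47), with an edgeR adjusted p of 0.309 for both. Of the 10, 0 passed adjustment by edgeR, 2 had an unadjusted p under 0.05 (11.8% of all genes), and DESeq2 gave an adjusted p to 3 of them and called 0. Female DRG 3 had 35.0 CPM of Csf1r, inside the range of the males, and for all 10 members the sexes overlapped in DRG (7.85% of genes had all females above all males). Ly86 was again lower in females, with 97.0 ± 27.99 CPM against 151 ± 41.8 CPM (SD, n = 3), but did not meet the criteria (log2 −0.64, SE 0.31, edgeR adjusted p = 0.441). The log2 difference of C1qc, 0.60, turned to −0.30 without female DRG 1. Without female DRG 2, 1 member met the criteria.

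Across both ganglia in the 12-library model, 4 of 10 members passed an adjusted p under 0.05. Csf1r, Cx3cr1 and C1qa were higher in females, by 1.28 (log2, SE 0.30), 1.22 (SE 0.32) and 1.10 (SE 0.30), with edgeR adjusted p of 0.0230, 0.0332 and 0.0385. Ly86 was higher in males, by −0.89 female over male (SE 0.21, edgeR adjusted p = 0.0229). Over all genes, 2.39% of them were called higher in females and 5.5% higher in males. C1qc (0.92, adjusted p = 0.0770) missed the edgeR threshold and passed that of DESeq2 (0.0351), and the other 5 lay between 0.23 and 0.95. All 9 genes other than Ly86 were above 0 with a median of 0.92, where the median of all genes was 0.01 and 50.4% were above 0. As between the ganglia, these signs are not 9 separate observations. Over both ganglia together the sexes overlapped for all 10 members, and 1.05% of genes had all females above all males.

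The calls were lost with many of the libraries, while the fold changes moved less. With 1 library left out, the log2 difference ran from −1.02 to −0.77 for Ly86, from 1.08 to 1.45 for Csf1r, from 1.03 to 1.45 for Cx3cr1 and from 0.93 to 1.27 for C1qa. Leaving out female DRG 1 left 1 member called, and leaving out any 1 of female DRG 2, female TG 1, female TG 2, male DRG 1, male DRG 2, male TG 1 and male TG 2 left 0. Leaving out 1 of the other 4 libraries left 3 to 5. The number of genes called over all genes moved in the same way, from 6 to 2620, so the adjusted p of a member reflects the other genes as well as its own values.

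Base composition and exon length moved with sex as well. Over 14619 genes, the log2 difference between the sexes had a Spearman correlation of 0.386 with the GC content of the exons, against 0.152 for TG over DRG. For the sexes in the separate fits it was 0.539 in TG and 0.196 in DRG. With exon length the correlation was 0.273 for the sexes across ganglia and 0.132 for TG over DRG. It was 0.186 for the sexes in TG and 0.318 in DRG. The offsets used next cover GC content and length at once, so their parts cannot be told apart. Ly86 has 44.8% GC, where the median gene has 49.9%, while C1qa, C1qb and C1qc have 59.5%, 57.4% and 56.0%. Csf1r, Aif1, Cd68 and Tyrobp have 54.3%, 53.4%, 52.7% and 55.5%, and Cx3cr1 has 49.6%. Mrc1, at 42.0%, has less GC than Ly86 but was above 0, female over male (log2 0.55, SE 0.26), so GC content did not sort the members by direction. When offsets for GC content and length were fitted in each library, the sex difference of Ly86 shrank to −0.06 (log2, SE 0.20, edgeR adjusted p = 0.929) and 0 of 10 members passed. Csf1r went from 1.28 to 0.92 (log2, edgeR adjusted p = 0.0736), Cx3cr1 from 1.22 to 1.26 (0.0580) and C1qa from 1.10 to 1.17 (0.0504), and the median over the 9 was 0.92 with or without the offsets. Within TG, 2 of the 4 members, C1qa and C1qc, still met the criteria with the offsets, while Csf1r was at 0.84 (log2, SE 0.34) and Ly86 at −0.22 (SE 0.26). Within DRG, Csf1r fell just short of the fold (0.98), and Cx3cr1 and C1qa met the criteria. The TG to DRG difference of Ly86 was −1.88 (SE 0.21) with the same offsets. The share of reads outside genes was 43.5% to 50.4% in female libraries and 37.6% to 47.9% in male libraries. Its part in the sex differences was not tested.

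**Figure D4:**
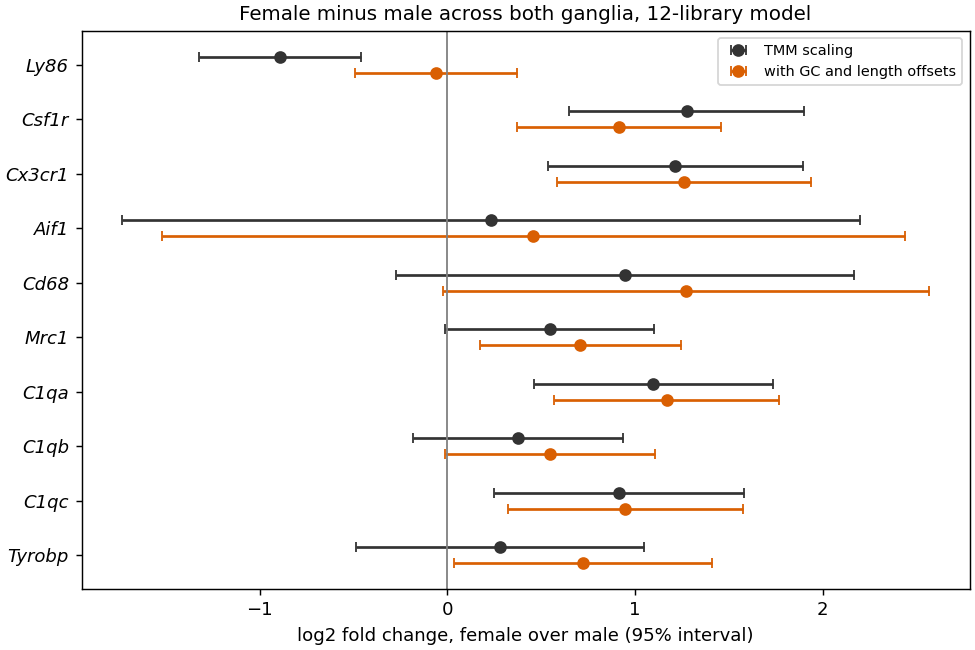
Log2 fold change of female over male across both ganglia for each macrophage gene, with 95% intervals, from the 12-library edgeR model with TMM scaling (dark) and with added offsets for GC content and length (orange). Ly86 moves from −0.89 to −0.06 with the offsets, while the other 9 stay above 0 under both.

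The sex difference was not detectably different between TG and DRG. In the interaction test 0 of 10 members passed (edgeR adjusted p 0.9998 for each, 0 at an unadjusted p under 0.05, 0 by DESeq2), against 0.0% of genes called. The interval was wide: for Ly86 the sex difference in TG minus that in DRG was −0.50 (log2, 95% interval −1.36 to 0.36) and for Csf1r 0.04 (−1.20 to 1.28).

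Genes of other cells moved with sex beside the macrophage genes. All 8 endothelial genes and all 8 fibroblast genes had a log2 difference above 0, female over male, with medians of 0.65 and 0.75. The called ones were Cdh5, Flt1, Tie1 and the collagen gene Col1a2. Of the 8 Schwann cell genes, 7 were above 0 with a median of 0.59, and 0 were called. Over all genes, 50.4% were above 0, 2.39% were called higher in females and 5.5% higher in males. Endothelial genes summed to 347 to 746 CPM in females and 246 to 472 CPM in males, and fibroblast genes to 1035 to 2207 and 622 to 1615 CPM. The 10 sensory neuron genes had a median of −0.20, and the 8 satellite glia genes 0.23, with Fabp7 called higher in males. The part of these cells in the macrophage result was not tested.

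Among ligands and wider lists, Cx3cl1 was called higher in females (22.3 ± 11.4 against 8.55 ± 3.03 CPM, SD, n = 6, log2 1.36, SE 0.34, edgeR adjusted p = 0.0274). Csf1 (0.82, SE 0.34, edgeR adjusted p = 0.139) and Il34 (0.19, SE 0.30) were not called. In the list of 29 myeloid genes 21 were above 0 with a median of 0.42, and 1 was called, where 2.39% of all genes were in that direction: Runx1 (log2 0.65, SE 0.20, edgeR adjusted p = 0.0491). Next were Unc93b1, a toll-like receptor chaperone (1.14, SE 0.35, edgeR adjusted p = 0.0528), and Lgmn, a lysosomal protease (−0.61, SE 0.20, edgeR adjusted p = 0.0593). Sirpa, Olfml3 and Stab1, each higher in females, were the 1 called gene of the TYROBP (7 tested), microglia-type (9 tested) and perivascular (8 tested) lists. Cd180, the partner of LY86, was not called (−0.02, SE 1.005). In the related TLR4 pathway, Ly96 (0.18, SE 0.54), Tlr4 (−0.61, SE 0.28) and Cd14 (0.36, SE 0.31) were not called either.

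From library to library, no correlation of Ly86 with another member passed its test. In TG the female and male libraries formed separate clusters for Ly86 with 3 libraries each, so a coefficient over all 6 cannot be told apart from the sex difference and is not given. The TG pairs were counted in the family for adjustment. In DRG the sexes overlapped but had different means of Ly86, which also enter r, and 8 of 9 correlations of log2 CPM with Ly86 were negative over 6 libraries, with a median r of −0.60. The strongest were C1qa (r = −0.872, exact permutation p = 0.0264, rho = −0.771, exact permutation p = 0.103) and Cx3cr1 (r = −0.867, exact permutation p = 0.0292, rho = −0.943, exact permutation p = 0.0167). In the family of 18 pairs over both ganglia, 0 passed Benjamini-Hochberg adjustment for r or for rho (lowest adjusted exact permutation p for r, 0.175). Without the 2 libraries farthest from the median of the other gene, r was −0.505 for C1qa and −0.391 for Cx3cr1. For Csf1r it went from −0.786 to 0.361 and for Mrc1 from −0.435 to 0.398, so those relations rest on 2 libraries. Cd68 went from −0.669 to −0.452 and C1qb from −0.604 to −0.426. Others became more negative: Tyrobp from −0.428 to −0.941, C1qc from −0.539 to −0.719 and Aif1 from 0.359 to −0.901.

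With the mean of each of the 4 groups subtracted, which removes ganglion and sex, r over the 12 libraries was below 0 for 8 of the 9 genes and Ly86. It ran from −0.62 for Cd68 to 0.22 for Aif1, with a median of −0.36, where the median of all genes was 0.03. The other 9 among themselves had a median r of 0.53 over 36 pairs, of which 29 were above 0. Aif1, with its few counts, gave the 7 pairs below 0: without it all 28 pairs were above 0, from 0.09 to 0.94, with a median of 0.69. All points share library depth and base composition, and the values are a description.

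**Figure D5:**
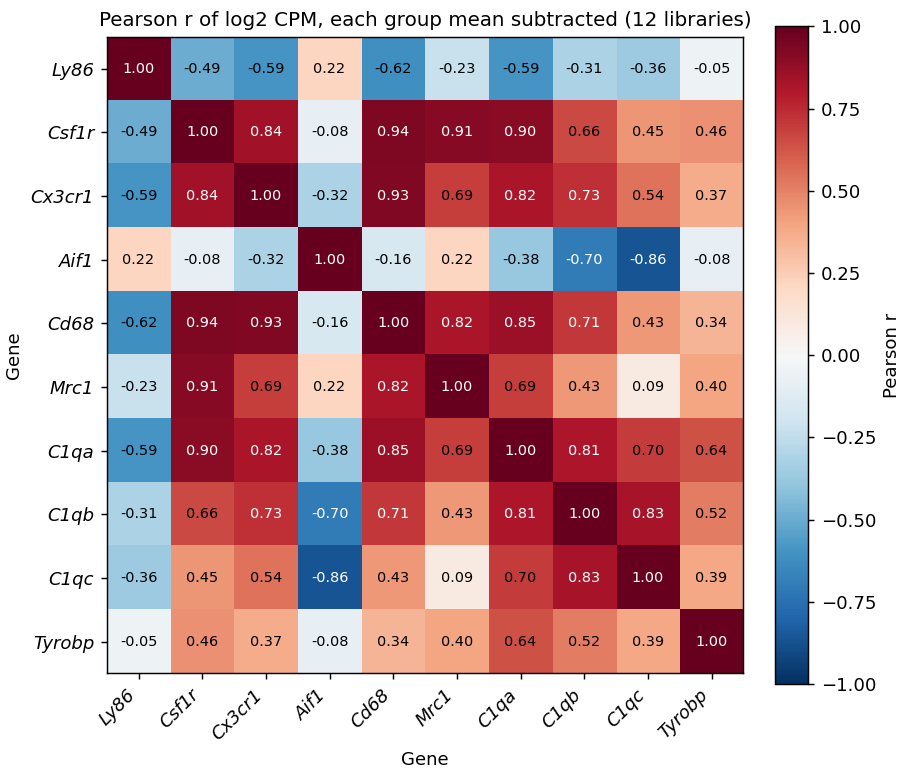
Pearson r between the macrophage genes in log2 CPM over 12 libraries, with the mean of each of the 4 groups subtracted. Red cells are positive and blue cells negative. Csf1r, Cx3cr1, Cd68, Mrc1 and C1qa form a block of high values, whereas the row of Ly86 is below 0 for every gene but Aif1.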

How the data were processed

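The authors dissociated ganglia, enriched neurons on Percoll, and sequenced rRNA-depleted, dUTP-stranded libraries as single reads. Per the labels and methods, reads were aligned to mm9 with TopHat2 and counted with HTSeq. The deposited files hold raw counts per gene symbol. The annotation, versions and strand setting are not given in the sources used here. Reads aligned to several places and the 5 summary lines per file were left out.

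The members, lists and tests were chosen with earlier results of these data known. Ly86 was selected on TG against DRG. Named genes were the 10 members, the partner and ligand lists in full, the 3 smallest p-values per contrast of the wider myeloid list, the 5 genes most like Ly86 by each of 2 measures, and called genes of other lists, of which 1 is not reported here.

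Genes were kept by filterByExpr, scaled by TMM and tested with edgeR 4.0.16 (R 4.3.3) quasi-likelihood F-tests with Benjamini-Hochberg adjustment over all genes, in one model of 4 group means over 12 libraries, and in separate 6-library fits for the sexes in TG and in DRG. DESeq2 1.42.0 was an alternative. Log2 CPM used a prior count of 2. GC contents and lengths came from GENCODE on NCBIM37 (mm9), which matched 21678 of 22609 symbols. Floors and intervals cover counting error or library spread only. On simulated data, the TG against DRG test recovered 33% of genes changed by 2-fold and 71.3% of those changed by 4-fold among 14399 genes. The 6-library fits for the sexes recovered 3% and 54.3% in TG, and 4% and 57.3% in DRG. The simulated counts took their spread from all 12 libraries, with 109 genes changed by 2-fold and 91 by 4-fold. In the data, 20.7% of genes had an unadjusted p under 0.05 (edgeR) between the sexes in TG. The rates therefore hold for the simulated setting, in which a 2-fold sex difference mostly went uncalled.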

Additional observations from a re-analysis of the deposited data

How the results depend on the processing

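Over 19 alternatives for TG against DRG (DESeq2 size factors or no scaling factors in edgeR, no filter on low counts, DESeq2, a replicate block, GC and length offsets, each library left out, and both libraries that stand apart left out), 0 of 9 members were called under each, and likewise within each sex. The log2 difference of Ly86 ranged from −2.18 to −1.88. The interaction stayed at 0 of 10 under the alternatives run. For female against male across ganglia, where 4 members were called, 0 were called with GC and length offsets, 1 with the replicate block and 0 to 5 with a library left out. With female DRG 1 and female TG 3 both left out, 4 were called. In TG, 2 rather than 4 members met the criteria with GC and length offsets, and 2 to 5 with a library left out. In DRG, 2 met them, 1 to 3 did with a library left out, and with GC and length offsets C1qa took the place of Csf1r. The median r of Ly86 with the other genes in DRG was −0.83 to −0.48, and Ly86 minus the mean of the other 9 differed by −2.88 to −2.23 between ganglia, with a library left out. Genes called over all genes numbered 143 for TG against DRG (562 with the block, 333 by DESeq2, 222 with GC and length offsets, 218 without the filter, 344 with both libraries left out, 77 to 231 with 1 left out) and 1169 for the sexes (381, 2304, 180, 1605, 2145 and 6 to 2620).

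Whether the replicate numbers mark paired libraries is not known. Deviations of same-numbered libraries from their group means were correlated. The values were −0.10, 0.01 and −0.09 for female and male TG, and 0.11, 0.03 and 0.17 for female and male DRG. They were 0.03, 0.12 and 0.21 for female TG and DRG, and 0.04, 0.12 and 0.22 for male TG and DRG. Those of TG with DRG within a sex were low but all above 0. The check does not settle the pairing, and the block is given here only. Without scaling factors the median gene moved by 0.17 between the sexes, against 0.01 with them.

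Of 660 single-member values, 18 changed sign, 0 of them with an adjusted p under 0.05 (edgeR). With a library left out, Cd68, TG over DRG, ran from −0.23 to 0.32. Female over male across ganglia, Aif1 ran from −0.11 to 0.52 and Tyrobp from −0.009 to 0.49. In TG, Tyrobp ran from −0.092 to 0.97. In DRG, Aif1 ran from −0.38 to 0.87, C1qc from −0.30 to 0.98 and Tyrobp from −0.083 to 0.46. With the replicate block, Aif1 went to −0.20 across ganglia and −0.57 in DRG. In DRG, Ly86 went to 0.031 with GC and length offsets, and C1qc to −0.30 with both libraries left out. The cause was not tested. Aif1 and Cd68 had the lowest counts of the members, at most 34 and 110 in a library.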

Other observations

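Genes of 4 further kinds of cells that a ganglion can hold were measured beside the macrophage genes. T and NK cell genes had 2 of 8 members with enough counts to be tested and summed to 0.593 to 9.25 CPM in DRG and 2.41 to 7.94 CPM in TG. Mast cell genes summed to 153 to 283 CPM in DRG and 145 to 213 CPM in TG. Nearly all of that was Kit, with means of 205 CPM in DRG and 170 CPM in TG. No other gene of that list averaged above 4.57 CPM in either ganglion. Erythroid genes summed to 2.80 to 37.3 and 4.75 to 21.8 CPM, with the haemoglobin genes Hbb-b1 and Hba-a1 at 0 in every library. Reads aligned to several places were left out, and whether this set those counts to 0 was not tested. Alas2 of the same list had 30 to 290 counts. Schwann cell genes summed to 1823 to 2810 CPM in DRG and 1907 to 2893 CPM in TG, with a median log2 difference of 0.31. In these lists edgeR called 0 genes between TG and DRG, with 0, 0, 1 and 2 at an unadjusted p under 0.05 (8.83% of all genes), and DESeq2 called 0, 0, 1 and 0 (2.25% of all genes).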
